A study of Mus musculus with 2 samples.

Results

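The Adam12, Bmper and Enpep fibroblasts are mouse mammary cells that carry collagen transcripts together with several of the 4 genes Scg3, Adam12, Bmper and Enpep. They numbered 728 cells of the Gpm6a-deleted (KO) library and 741 cells of the wild-type (WT) library, 1469 of 21891 filtered barcodes in all. A barcode was taken when it had at least 1000 UMIs (unique molecular identifiers, each standing for 1 captured RNA molecule), at least 500 genes and at most 10% mitochondrial UMIs. It also needed at least 40 UMIs per 10000 from Col1a1, Col3a1 and Dcn together, and no UMI of Ptprc, Epcam or Cdh5, the markers of leukocytes, epithelium and endothelium. Of these gated fibroblasts (4173 KO and 4105 WT), members were those with at least 2 of the 4 genes above, called set B here, and more of them than of any of 4 other sets of 4 genes. Set A holds Pi16, Dpp4, Smpd3 and Wnt10b. Set C holds Stra6, Crabp1, Col13a1 and Mmp11. Set D holds Vit, Clec11a, C2 and Gdf10. Set E holds Rxfp2, Rspo3, Chrdl2 and Myoc. Members were therefore chosen on measured values, and what follows about how they differ from the other gated fibroblasts is a description without a test.

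The study set single-cell RNA of the 4th mammary gland of mice with a Gpm6a deletion beside that of WT mice, all C57BL/6 virgin females 6 to 8 weeks old. The labels do not say which stretch of Gpm6a was removed or in which cells. Viable DAPI-negative cells of 3 littermates per genotype were sorted after collagenase and trypsin digestion and run on the 10x Genomics 3′ version 2 kit. Whether the 3 animals were pooled is not stated, and the labels speak of epithelial cells, although leukocytes and fibroblasts are among the barcodes.

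There was 1 library per genotype, so no difference between KO and WT has a replicate check and none was tested. The KO library had 11442 barcodes with a median of 9396 UMIs and the WT library 12291 with a median of 10168. Members were deeper than that, with medians of 10140.5 UMIs in KO and 13060 in WT, and other gated fibroblasts had 7899 in KO and 10041.5 in WT. Gpm6a, the deleted gene, had 0 UMIs in KO members, which allows a level of up to 0.398 counts per 1000000 UMIs (CPM), and 1 UMI in WT members, so these cells do not check the genotype. Gpm6a had 0.108 CPM in KO and 1.02 CPM in WT other gated fibroblasts, and 0.260 CPM in KO and 2.20 CPM in WT barcodes outside the gate. No barcode sequence was shared between KO and WT members, and 33 were shared between the libraries as a whole. Levels are UMIs summed over the cells of a group, in CPM. The ranges given in brackets are 95% intervals, by the exact Poisson method for a level and the exact Clopper-Pearson method for a share, and reflect counting error alone.

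Fibroblasts of the mammary stroma build the collagen matrix around ducts and fat lobules and send growth factors to the epithelium, and they fall into several transcriptional states within the same gland. Among the genes that define the members, Adam12 encodes a membrane-anchored metalloprotease that sheds growth factor precursors and is found on mesenchymal and stromal progenitors. Bmper encodes a secreted protein that binds bone morphogenetic proteins (BMPs), and Enpep encodes aminopeptidase A, a cell-surface enzyme that trims angiotensin II. Scg3 encodes secretogranin III, best known from the secretory granules of endocrine cells and neurons.

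Adam12 (chromosome 7, 133883199 to 134232146, minus strand, GRCm38) had 205 CPM (195–215) in KO members and 200.1 CPM in WT members, against 48.4 CPM in other gated KO and 35.1 CPM in other gated WT fibroblasts. Outside the members it was highest in set C cells, at 93.2 CPM in KO and 65.4 CPM in WT, followed by cells led by no set, at 75.3 CPM in KO and 62.1 CPM in WT. Adam12 was at 4.41 CPM in set A cells of both libraries, below its 7.36 CPM in KO and 8.74 CPM in WT leukocytes. The leukocytes, 1178 KO and 694 WT cells with at least 2 Ptprc UMIs and no Epcam or Cdh5 UMI, show what free RNA adds to cells that should lack a fibroblast gene. Adam12 was above leukocytes in members, in set C cells and in cells led by no set, and below them in set A cells. As a set B gene it helped to choose the members, and cells led by another set had to have fewer set B genes. Its order among these classes is thus partly set by the rule.

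Enpep (chromosome 3, 129269175 to 129332720, minus strand) had 197 CPM (187–207) in KO members and 250.2 CPM (240.5–260.1) in WT members. Other gated fibroblasts had 36.2 CPM in KO and 58.0 CPM in WT, and the set E cells of the WT library had 77.2 CPM. The KO level lay below the WT level both in members and in other gated fibroblasts.

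Bmper (chromosome 9, 23223076 to 23485200, plus strand) had 135 CPM (127–144) in KO members and 127 CPM (119.9–134) in WT members, with overlapping intervals. It had 22.5 CPM in other gated KO and 26.8 CPM in other gated WT fibroblasts. Scg3 (chromosome 9, 75643189 to 75684056, minus strand) had 124 CPM (116–132) in KO members and 139 CPM (132–146) in WT members. It had 13.4 CPM in other gated KO and 11.8 CPM in other gated WT fibroblasts. In sets A, C, D and E its levels ran between 2.83 and 15.4 CPM, beside 3.48 CPM in KO and 7.80 CPM in WT leukocytes. Of the 4 rule genes, Scg3 thus had the lowest level relative to members in the rest of the gate.

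**Figure D1:**
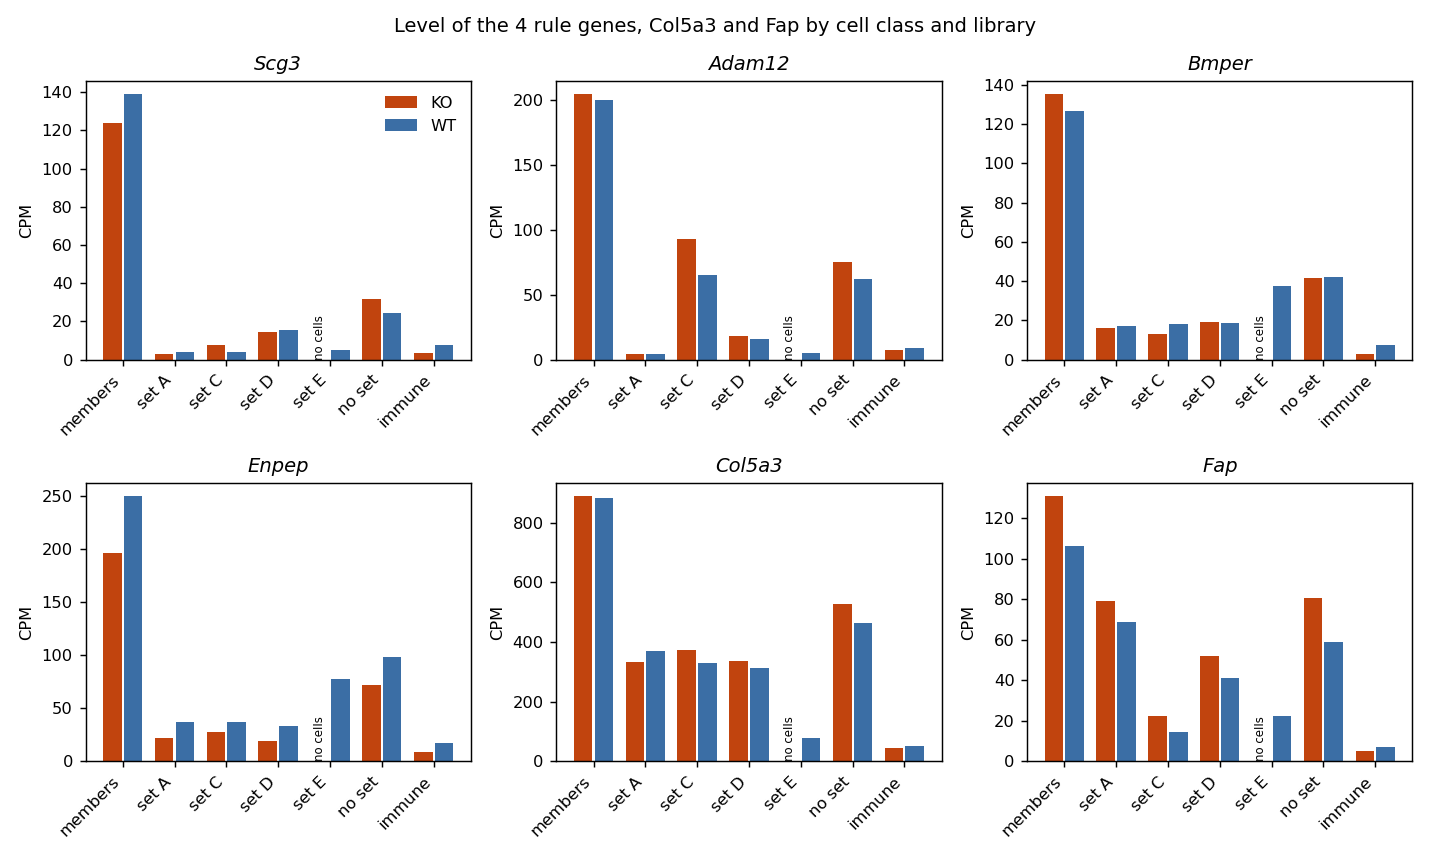
Level in CPM (vertical axis, from 0) of Scg3, Adam12, Bmper, Enpep, Col5a3 and Fap in members, in cells led by sets A, C, D and E, in gated cells led by no set and in leukocytes, with KO bars left of WT bars. All 6 genes are highest in members, which the rule favours for Scg3, Adam12, Bmper and Enpep, while Col5a3 and Fap were not used by it. Adam12 is next highest in set C cells, Fap is at 79.4 CPM in KO and 68.8 CPM in WT set A cells, and the KO library has no set E cell.

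Most members had 2 or 3 set B genes. In KO, 34.6% of members had 2, 45.7% had 3 and 19.6% had all 4, and in WT 26.7% had 2, 43.5% had 3 and 29.8% had all 4. Members with more set B genes were also deeper: median UMIs were 9000.5, 10617 and 11443 for 2, 3 and 4 genes in KO and 10426, 13432.5 and 15057 in WT. A UMI of Enpep was found in 83.5% of KO and 92.6% of WT members, of Adam12 in 80.6% of KO and 78.4% of WT members, of Bmper in 69.8% of KO and 77.2% of WT members, and of Scg3 in 51.1% of KO and 54.9% of WT members. The same shares in leukocytes lay between 1.44% and 6.196%, at median depths of 5785 UMIs in KO and 7765.5 in WT. When every cell was thinned to 5000 UMIs, which left out 33 KO and 29 WT members, Enpep was seen in 59.4% of KO and 67.6% of WT members, against 15.0% of KO and 20.4% of WT other gated fibroblasts. Thinned in the same way, Adam12 was seen in 59.9% of KO and 56.3% of WT members, so its order between the libraries was not that of Enpep.

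Just inside the rule stood the members with 2 set B genes, 252 KO and 198 WT cells. Just outside stood 405 KO and 511 WT gated cells that had 2 or more set B genes without leading on that set, and 67 KO and 57 WT cells that led on a single set B gene. In the first of these outside groups, another set was level or ahead: set C in 52.1% of KO and 45.8% of WT cells and set D in 37.3% of KO and 32.7% of WT cells. Set A was level or ahead in 20.2% of KO and 19.96% of WT cells, and set E in 0.247% of KO and 18.6% of WT cells. Col5a3, which the rule did not use, was at 815 CPM in KO and 725 CPM in WT members with 2 set B genes, and at 547 CPM in KO and 496 CPM in WT cells of the first outside group. Cells that led on a single set B gene had 688 CPM of Col5a3 in KO and 755 CPM in WT, close to the members with 2. A further 124 KO and 187 WT barcodes with the set B pattern and the collagen level were kept out by an Epcam UMI.

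Each rule gene can also be read in cells chosen on the other 3 set B genes alone. Cells chosen without Scg3 had 99.5 CPM of Scg3 in KO and 118 CPM in WT, against 24.2 CPM in the remaining gated KO and 23.9 CPM in the remaining gated WT fibroblasts. The same step gave Adam12 at 194 CPM in KO and 192 CPM in WT against 64.6 CPM in KO and 51.6 CPM in WT, and Bmper at 115 CPM in KO and 118 CPM in WT against 34.3 CPM in KO and 36.5 CPM in WT. Enpep chosen on the other 3 had 189.9 CPM in KO and 267 CPM in WT, against 52.5 CPM in KO and 76.7 CPM in WT. The left-out gene was between 2.997-fold and 4.95-fold higher in the chosen cells over the 4 genes and both libraries. The 4 genes had been put together with earlier results of these data known, so these values describe the set and support nothing about it. In cells thinned to 5000 UMIs, Scg3 was seen in 27.2% of KO and 28.1% of WT cells chosen without it, against 8.42% of the remaining gated KO and 6.13% of the remaining gated WT fibroblasts.

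Members also lay near each other on genes the rule had not used. With the 20 rule genes and the gate genes left out, 60.5% of the 20 nearest neighbours of KO members and 59.8% of those of WT members were members, where members made up 17.4% of gated KO and 18.1% of gated WT fibroblasts. Gated cells led by no set supplied 24.8% of neighbours in KO and 23.6% in WT, where they made up 23.7% of gated KO and 27.8% of gated WT fibroblasts. Set C cells supplied 9.16% in KO and 9.66% in WT, from 16.5% of the gate in KO and 12.47% in WT, and set A cells 1.61% in KO and 2.09% in WT, from 24.5% of the gate in KO and 17.4% in WT. Summed profiles were compared across genes as a description: Spearman's rho of members with cells led by no set was 0.974 over 6759 genes in KO and 0.970 over 7179 genes in WT. With set D it was 0.889 in KO and 0.896 in WT, with set C 0.867 in KO and 0.901 in WT, with set A 0.856 in KO and 0.866 in WT, and with the WT set E cells 0.804. Within a library, all of these profiles share its free RNA.

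The members carried the matrix and receptor genes of fibroblasts. Col1a1, a chain of type I collagen, had 12552 CPM in KO and 15119 CPM in WT members, and Col1a2, its partner chain, 12532 CPM in KO and 16141 CPM in WT members, while leukocytes had at most 1514 CPM of either chain. Pdgfra, the receptor kinase that marks mesenchymal fibroblasts, had 385 CPM in KO and 464 CPM in WT members, beside 441 CPM in other gated KO and 482 CPM in other gated WT fibroblasts. Ly6a (Sca-1), a surface marker of stromal progenitors, was lower in members, with 569 CPM in KO and 339 CPM in WT against 1242 CPM in other gated KO and 846 CPM in other gated WT fibroblasts. Of the 12 pan-fibroblast genes outside rule and gate, none was 2-fold higher and 2 were 2-fold lower in members of both libraries, Ly6a and Fbln1, which encodes the matrix glycoprotein fibulin-1.

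Markers of other cell types were low, although the adipocyte list and the tenocyte and cartilage list stood above the other gated fibroblasts in both libraries. The 13 epithelial markers summed to 73.0 CPM in KO and 73.7 CPM in WT members, and the 12 immune markers to 27.4 CPM in KO and 21.98 CPM in WT members, against 15255 CPM in KO and 17509 CPM in WT leukocytes. The 10 pericyte and smooth muscle markers summed to 103 CPM in KO and 265 CPM in WT members, beside 87.5 CPM in KO and 266 CPM in WT leukocytes, close to the background of each library. Of the 10 adipocyte markers, Cidec, Adrb3 and Pck1 had no UMI in members, Plin1 had 0.265 CPM in KO and 0.396 CPM in WT, and Adipoq 0 in KO and 0.198 CPM in WT. Their sum of 46.7 CPM in KO and 28.9 CPM in WT members came mainly from Car3 and Slc36a2. It was 7.82 CPM in KO and 17.9 CPM in WT other gated fibroblasts, and 4.37 CPM in KO and 14.4 CPM in WT leukocytes. The 8 tenocyte and cartilage markers summed to 124 CPM in KO and 136 CPM in WT members. Other gated fibroblasts had 62.2 CPM of them in KO and 64.7 CPM in WT, and leukocytes 11.6 CPM in KO and 17.6 CPM in WT. Of these markers, Comp, Acan, Chad and Col2a1 had no UMI in members. Sox9 was the only 1 with at least 20 UMIs over the members of both libraries, so the sum does not stand for the list. Of the 6 markers measured against other gated fibroblasts, 1 was at least 2-fold higher in members of both libraries. In both libraries 4 of the 6 were lower in members.

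Across the transcriptome, 78 of 14893 genes were at least 2-fold higher in members than in other gated fibroblasts of both libraries (0.524% of those measured), and 351 were at least 2-fold lower (2.36%). These shares are the background for every list count of members over other gated fibroblasts. A count of 0 in a short list lies near them and is not a result about that list. Ratios are log2 of CPM with 1 CPM added to each side. The median log2 ratio over all these genes was -0.01 in KO and -0.02 in WT. With 0.1 CPM added the counts were 147 higher and 808 lower, and with 5 CPM 43 higher and 148 lower. More genes were thus low than high in members, and the genes named next as higher fall mostly into lipid handling, sterol synthesis and matrix.

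**Figure D2:**
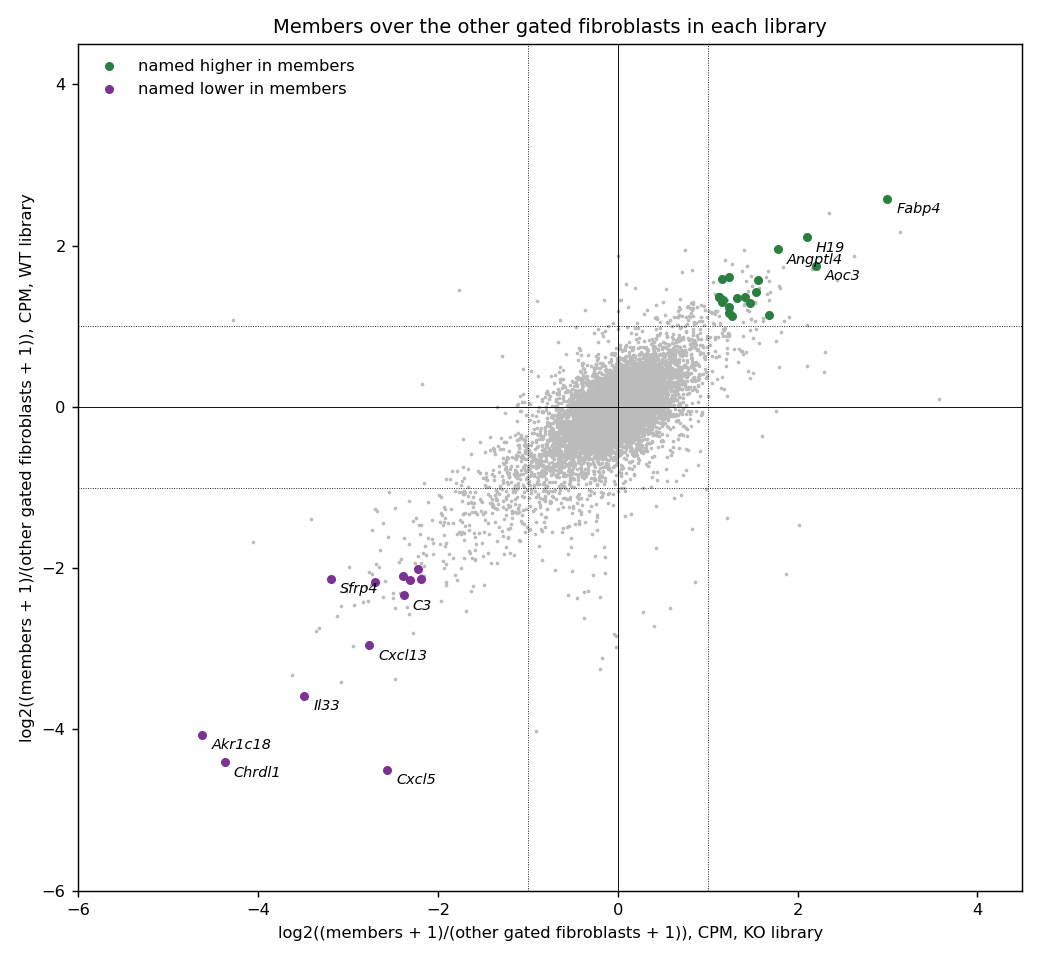
Log2 ratio of members over other gated fibroblasts in the KO library (horizontal axis) and in the WT library (vertical axis), 1 point per gene with at least 20 UMIs over the members, rule genes left out, dotted lines at 2-fold. Fabp4, at 2.999 in KO and 2.58 in WT, is the farthest of the named higher genes in colour, and Chrdl1 and Akr1c18 lie below -4 in both libraries.

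The gene with the highest named ratio was Fabp4 (chromosome 3, 10204088 to 10208576, minus strand), which encodes the fatty acid carrier of adipocytes, macrophages and capillary endothelium. It had 572 CPM (555–589) in KO and 482 CPM (469–496) in WT members, against 70.6 CPM in other gated KO and 79.7 CPM in other gated WT fibroblasts. Its levels in leukocytes were 40.7 CPM in KO and 64.6 CPM in WT, and barcodes outside the gate, which include those with a Cdh5 UMI, had 825 CPM in KO and 689.9 CPM in WT. After thinning, Fabp4 was seen in 58.1% of KO and 46.6% of WT members, against 13.2% of KO and 11.8% of WT other gated fibroblasts and 6.07% of KO and 10.8% of WT leukocytes. Fabp4 was thus seen in many but not all members at this depth, and close to the leukocyte share in the rest of the WT gate.

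Other lipid genes went the same way. Lpl, the lipase that frees fatty acids from circulating lipoproteins, had 1854 CPM in KO and 1829.8 CPM in WT members against 785 CPM in other gated KO and 776 CPM in other gated WT fibroblasts. Angptl4, a secreted inhibitor of that lipase, had 164 CPM in KO and 181 CPM in WT members against 47.1 CPM in KO and 45.8 CPM in WT. Cd36, a fatty acid transporter, had 58.1 CPM in KO and 38.0 CPM in WT members against 5.70 CPM in KO and 7.69 CPM in WT, and leukocytes had more of it, 85.4 CPM in KO and 167 CPM in WT. Pparg, the master transcription factor of fat cell differentiation, had 26.5 CPM in KO and 28.4 CPM in WT members against 9.05 CPM in KO and 9.90 CPM in WT. Of the 23 measured genes of the adipogenic and lipid list, 4 were at least 2-fold higher in members of both libraries (Fabp4, Lpl, Cd36 and Pparg) and 2 were lower, with list medians of 0.18 in KO and -0.07 in WT. The late adipocyte genes given above were at or near 0, so the higher genes were a part of the list and not the whole of it. Lpl was not particular to members, since set C cells had 1150 CPM in KO and 1442.5 CPM in WT. Cells led by no set had 1043 CPM of Lpl in KO and 1002 CPM in WT.

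Sterol synthesis genes were higher in members as a group. All 20 were above other gated fibroblasts in both libraries, 6 of them by at least 2-fold, and none was lower; the list median was 1.21 in KO and 0.68 in WT. The list was written after values had been seen, so its count is a description. Hmgcs1, which makes the HMG-CoA that enters the pathway, had 370.4 CPM (357–384) in KO and 366 CPM (354–378) in WT members, against 127 CPM in other gated KO and 136 CPM in other gated WT fibroblasts. Cyp51, which demethylates lanosterol, had 187 CPM in KO and 171 CPM in WT members against 67.0 CPM in KO and 69.3 CPM in WT. Fdps, which makes farnesyl diphosphate, had 104 CPM in KO and 71.7 CPM in WT members against 31.9 CPM in KO and 32.1 CPM in WT. Insig1, a sterol sensor that holds the pathway's regulator in the endoplasmic reticulum, had 357 CPM in KO and 318 CPM in WT members against 151 CPM in KO and 141 CPM in WT.

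Summed over the 20 genes, sterol synthesis transcripts made up 1507 CPM in KO and 1344 CPM in WT members. Cells led by no set had 898 CPM in KO and 819 CPM in WT, set D cells 641 CPM in KO and 599.7 CPM in WT, set A cells 508 CPM in KO and 723 CPM in WT, and set C cells 402 CPM in KO and 496 CPM in WT. Fatty acid synthesis was closer to the other gated fibroblasts: 1 of 15 measured genes, Elovl6, was at least 2-fold higher in both libraries, and the median ratio was 0.22 in KO and 0.19 in WT. Elovl6, which lengthens palmitate, had 58.8 CPM in KO and 77.2 CPM in WT members against 21.4 CPM in other gated KO and 29.5 CPM in other gated WT fibroblasts.

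**Figure D3:**
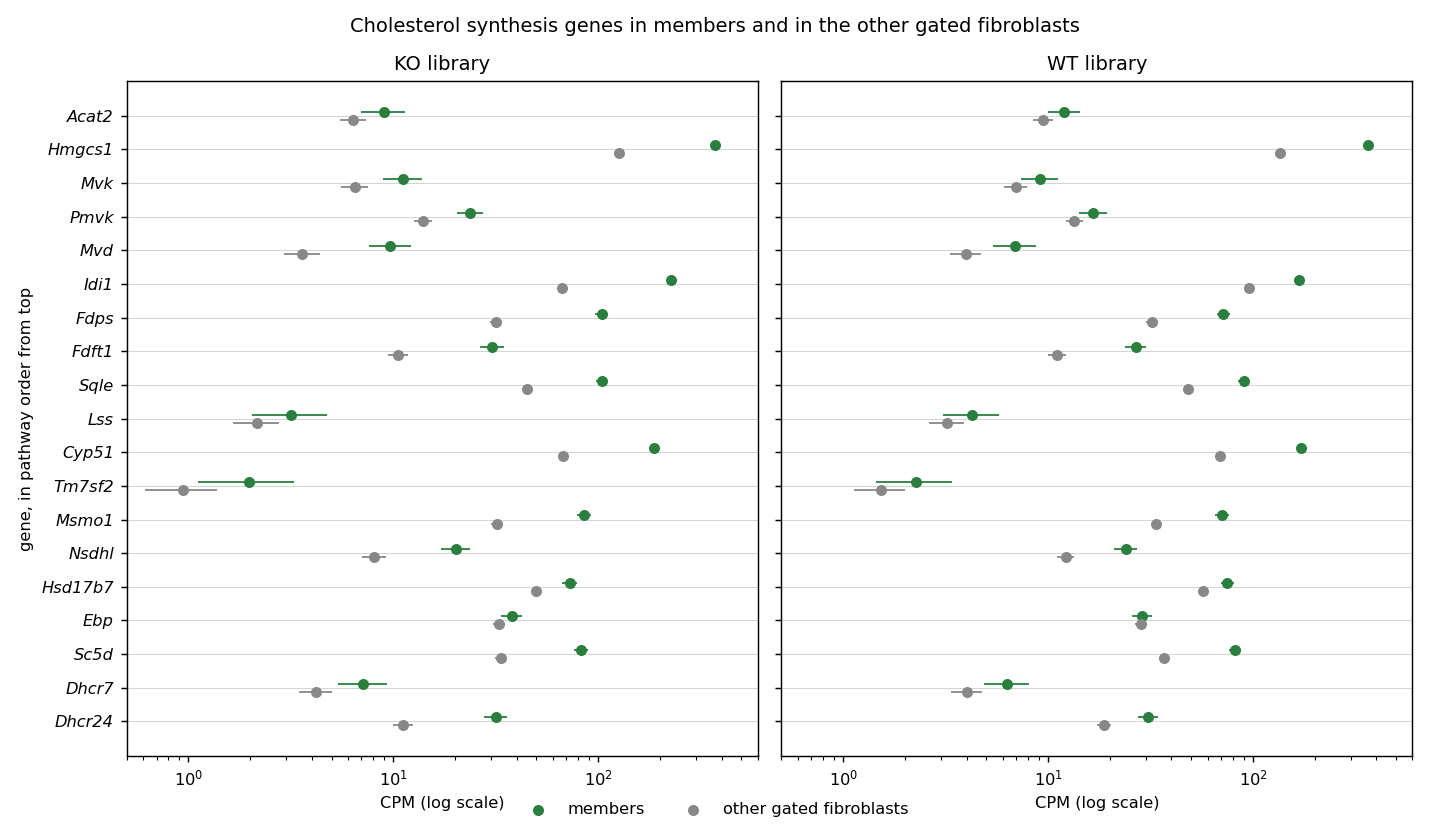
Level in CPM (horizontal axis, log scale) of sterol synthesis genes in pathway order, members in green and other gated fibroblasts in grey, KO library in the left panel and WT in the right, with lines for exact Poisson 95% intervals. Members lie to the right for every gene drawn in both panels, and the separation is small for Ebp, Lss and Tm7sf2.

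Matrix genes differed from one another, some being higher in members, some close to the other gated fibroblasts and some lower. Col5a3 (chromosome 9, 20770050 to 20815067, minus strand), a rarer chain of type V collagen, had 889.8 CPM (869–911) in KO and 883 CPM (865–901) in WT members, against 395 CPM in other gated KO and 353 CPM in other gated WT fibroblasts. It was the only one of 7 measured fibrillar collagen genes at least 2-fold higher in both libraries. Col5a1, the main chain of type V collagen, had 861 CPM in KO and 971 CPM in WT members against 836 CPM in other gated KO and 759.7 CPM in other gated WT fibroblasts. Col18a1, whose C terminus is endostatin, had 476 CPM in KO and 415 CPM in WT members, and set C cells were close to that, with 442 CPM in KO and 388 CPM in WT. Of 16 basement-membrane genes none was 2-fold higher in both libraries, where 0.524% of all measured genes were. Col4a1, one of them, had 1412 CPM in KO and 1849.97 CPM in WT members against 890 CPM in KO and 1024 CPM in WT. Thbs1, a matricellular glycoprotein that activates latent TGF-beta, had 1790.0 CPM in KO and 1819 CPM in WT members against 823 CPM in KO and 834 CPM in WT. Elastin went the other way, and Eln had 487 CPM in KO and 667 CPM in WT members against 1869 CPM in other gated KO and 1844 CPM in other gated WT fibroblasts.

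Fap (chromosome 2, 62500943 to 62574075, minus strand), a cell-surface serine protease known from activated and tumour fibroblasts, had 131 CPM (123–139.5) in KO and 107 CPM (100.3–113) in WT members. Other gated fibroblasts had 60.6 CPM in KO and 46.2 CPM in WT. Set A cells stood between, with 79.4 CPM in KO and 68.8 CPM in WT, and 45.3% of KO and 48.3% of WT set A cells had a UMI, against 63.6% of KO and 61.8% of WT members. Cells led by no set had 80.8 CPM in KO and 58.9 CPM in WT. Fap was therefore also seen in set A cells and in cells led by no set, and did not mark the members alone. The secreted protease gene Adamts12 had 225 CPM in KO and 303 CPM in WT members against 103 CPM in other gated KO and 118 CPM in other gated WT fibroblasts.

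A few further genes were high in members. H19, an imprinted long non-coding RNA, had 693 CPM in KO and 567 CPM in WT members against 161 CPM in other gated KO and 131 CPM in other gated WT fibroblasts. Aoc3 (vascular adhesion protein 1), an amine oxidase of adipose tissue and vessel walls, had 126 CPM in both KO and WT members against 26.7 CPM in KO and 36.8 CPM in WT. Epas1, the hypoxia-inducible factor HIF-2 alpha, had 96.9 CPM in KO and 100.6 CPM in WT members against 32.2 CPM in KO and 33.1 CPM in WT. Fgf10, a mesenchymal growth factor needed for mammary bud formation, had 38.7 CPM in KO and 29.5 CPM in WT members against 8.54 CPM in KO and 7.60 CPM in WT, and was at 0.795 CPM in KO and 1.35 CPM in WT leukocytes. Fgf10 was the only one of 20 measured IGF and FGF pathway genes at least 2-fold higher in both libraries, and 4 of them were lower.

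Genes of innate immunity and of morphogen control were among the transcripts low in members, and they are only a part of the 351 lower genes. Other lists had lower genes too. At least 2-fold lower in both libraries were 6 of 22 axon guidance and Eph genes and 5 of 29 elastic fibre and matricellular genes. Of 13 measured complement genes, 7 were at least 2-fold lower in members of both libraries, where 2.36% of all measured genes were. None was higher, and the median ratio was -1.19 in KO and -1.05 in WT. C3, the hub of the complement cascade, had 247 CPM in KO and 227 CPM in WT members against 1292 CPM in other gated KO and 1148 CPM in other gated WT fibroblasts. The C3 of the gate lay mostly in set A cells, at 2993 CPM in KO and 3423 CPM in WT, and in set D cells, at 1258 CPM in KO and 915 CPM in WT, while set C cells had 5.55 CPM in KO and 29.0 CPM in WT. Members were therefore low in C3 beside sets A and D and not beside set C. Of 20 interferon-stimulated genes, 8 were at least 2-fold lower in members of both libraries and none was higher, with median ratios of -0.72 in KO and -0.57 in WT. The interferon list summed to 1005 CPM in KO and 667 CPM in WT members. Set A cells had 3436 CPM in KO and 2288 CPM in WT, and set D cells 2717 CPM in KO and 1931 CPM in WT. Cells led by no set had 1222 CPM in KO and 799 CPM in WT, and set C cells only 261 CPM in KO and 223 CPM in WT. Members were thus low in this list beside sets A and D and above set C.

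Of 26 chemokine and cytokine genes, 5 were at least 2-fold lower in members of both libraries, where 2.36% of all measured genes were, and none was higher. Il33, a nuclear alarmin of stromal cells, had 10.7 CPM in KO and 6.73 CPM in WT members against 131 CPM in other gated KO and 91.7 CPM in other gated WT fibroblasts, and leukocytes had 8.05 CPM in KO and 24.2 CPM in WT. Cxcl13, a B cell attractant, had 21.1 CPM in KO and 19.2 CPM in WT members against 149 CPM in KO and 155 CPM in WT. Ackr3, a receptor that takes up the chemokine CXCL12, had 92.6 CPM in KO and 98.4 CPM in WT members against 489 CPM in KO and 426 CPM in WT. Il33 in members was thus near its level in leukocytes in KO and below it in WT, while Ackr3 was above its 28.5 CPM in KO and 32.2 CPM in WT leukocytes. Set C cells were lower still, with 2.91 CPM of Il33, 0.555 CPM of Cxcl13 and 30.7 CPM of Ackr3 in KO. In WT set C cells had 3.34 CPM of Il33, 0.910 CPM of Cxcl13 and 35.2 CPM of Ackr3. Members were therefore low in Il33, Cxcl13 and Ackr3 beside sets A and D and not beside set C.

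Among morphogen genes, Chrdl1, a secreted BMP antagonist, had 6.36 CPM in KO and 7.23 CPM in WT members against 151 CPM in other gated KO and 173 CPM in other gated WT fibroblasts, and was at 10.9 CPM in KO and 16.4 CPM in WT leukocytes. It was highest in set A cells, at 293 CPM in KO and 410.4 CPM in WT, and set D cells, at 289 CPM in KO and 327 CPM in WT. Set C cells were below members, with 1.11 CPM of Chrdl1 in KO and 1.365 CPM in WT. Sfrp4, a secreted Wnt inhibitor, had 28.1 CPM in KO and 55.8 CPM in WT members against 265 CPM in KO and 248 CPM in WT. Set C cells had less of it than members, 5.27 CPM in KO and 10.5 CPM in WT. Wnt5a, a non-canonical Wnt ligand, had 22.1 CPM in KO and 20.8 CPM in WT members against 62.2 CPM in KO and 58.0 CPM in WT. None of 28 BMP genes and none of 32 Wnt genes was at least 2-fold higher in both libraries, where 5 BMP and 7 Wnt genes were lower. Bmper was left out of that BMP count as a rule gene, so members were high in the BMP-binding protein that chose them and low in Chrdl1. Akr1c18, a reductase that inactivates progesterone, had 4.90 CPM in KO and 6.14 CPM in WT members against 144 CPM in KO and 119 CPM in WT, and lay in set A cells at 433 CPM in KO and 450.1 CPM in WT.

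Over all gated fibroblasts, levels differed with the number of set B genes seen in a cell. Fabp4 in KO was no higher with 4 of them than with 3. Over 0, 1, 2, 3 and 4 set B genes, Fabp4 had 41.0, 97.2, 226, 579 and 526 CPM in KO, and 66.9, 86.7, 126, 409.8 and 542 CPM in WT. Hmgcs1 over the same steps had 95.9, 146, 253, 340.3 and 356 CPM in KO, and 116, 138, 187, 325 and 393 CPM in WT. C3 had 1627, 1053, 581, 394 and 140.4 CPM in KO, and 1393, 1146, 676, 361 and 102 CPM in WT. The steps are also steps in depth, since the median UMI count went up from 6815 to 11448 in KO and from 7460 to 15341.5 in WT between 0 and 4 set B genes, and the part of depth in them was not tested. At the rule's edge, Fabp4 had 431 CPM in KO and 284 CPM in WT members with 2 set B genes, against 104.5 CPM in KO and 91.1 CPM in WT cells that had 2 or more without leading on that set. Cells that led on a single set B gene had 678 CPM of Fabp4 in KO and 951 CPM in WT, at median depths of 5997 UMIs in KO and 3635 in WT.

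**Figure D4:**
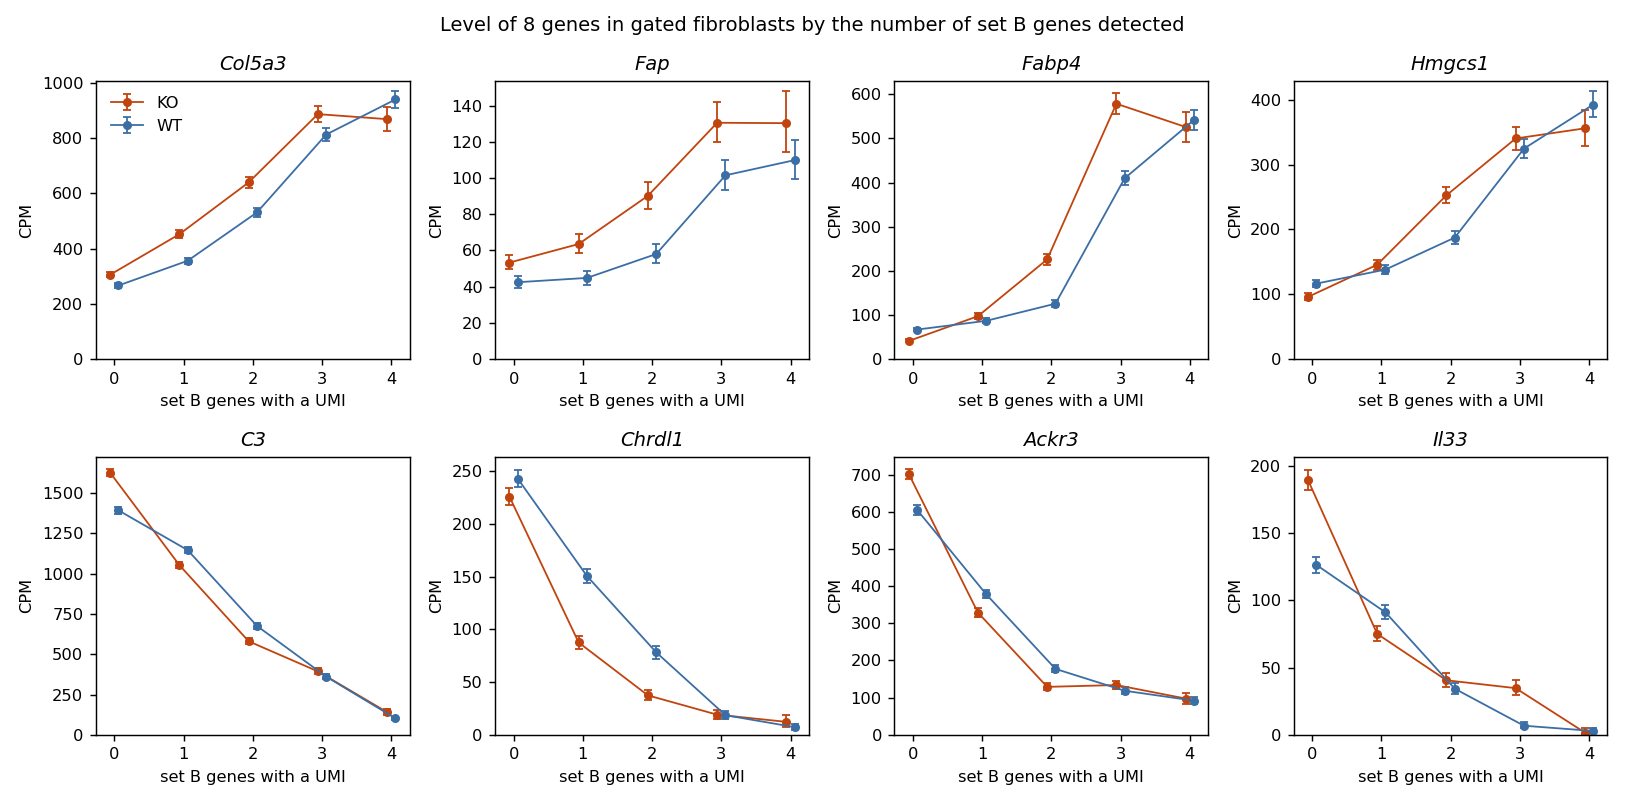
Level in CPM (vertical axis) of 8 genes in gated fibroblasts by the number of set B genes with a UMI (horizontal axis, 0 to 4), KO and WT libraries as separate lines, bars for exact Poisson 95% intervals. Col5a3, Fap, Fabp4 and Hmgcs1 are higher with 3 or 4 set B genes than with none, and C3, Chrdl1, Ackr3 and Il33 are lower, in both libraries.

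Between the genotypes, members made up about the same share of gated fibroblasts, 17.4% (16.3–18.6) in KO and 18.1% (16.9–19.3) in WT, with overlapping intervals. Of all filtered barcodes they were 6.67% in KO and 6.75% in WT. The rest of the gate was less even: set A cells were 24.5% of gated cells in KO and 17.4% in WT, and set E cells were 0 of 4173 in KO, which allows a share of up to 0.0719%, and 272 cells (6.63%) in WT. All 4 set B genes were seen in 19.6% (16.8–22.7) of KO and 29.8% of WT members, and KO members were the shallower ones. A share of cells cannot tell a change in members from a change in the other fibroblasts it is measured against. Set E genes also kept cells with 2 or more set B genes out of the members almost only in WT. What this adds to the shares was not tested.

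In members, 60 of 11900 measured genes were at least 2-fold higher in KO than in WT (0.504%) and 193 were at least 2-fold lower (1.62%). Of the same genes in other gated fibroblasts, 26 were higher and 233 lower. With 0.1 CPM added the counts in members were 157 higher and 374 lower, and with 5 CPM 12 higher and 44 lower. The median log2 ratio of all genes was -0.08 in members and -0.06 in other gated fibroblasts. Members and other gated fibroblasts come from the same libraries, so their ratios are given side by side and no overlap is read from them. Of 683 measured genes that were named or on a list, 11 (1.61%) had ratios of opposite sign in members and in other gated fibroblasts, with intervals apart in both and at least 0.2 on the log2 scale, and over all measured genes 0.395% did. With 1 library per genotype, a difference between libraries and a difference between genotypes cannot be told apart.

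**Figure D5:**
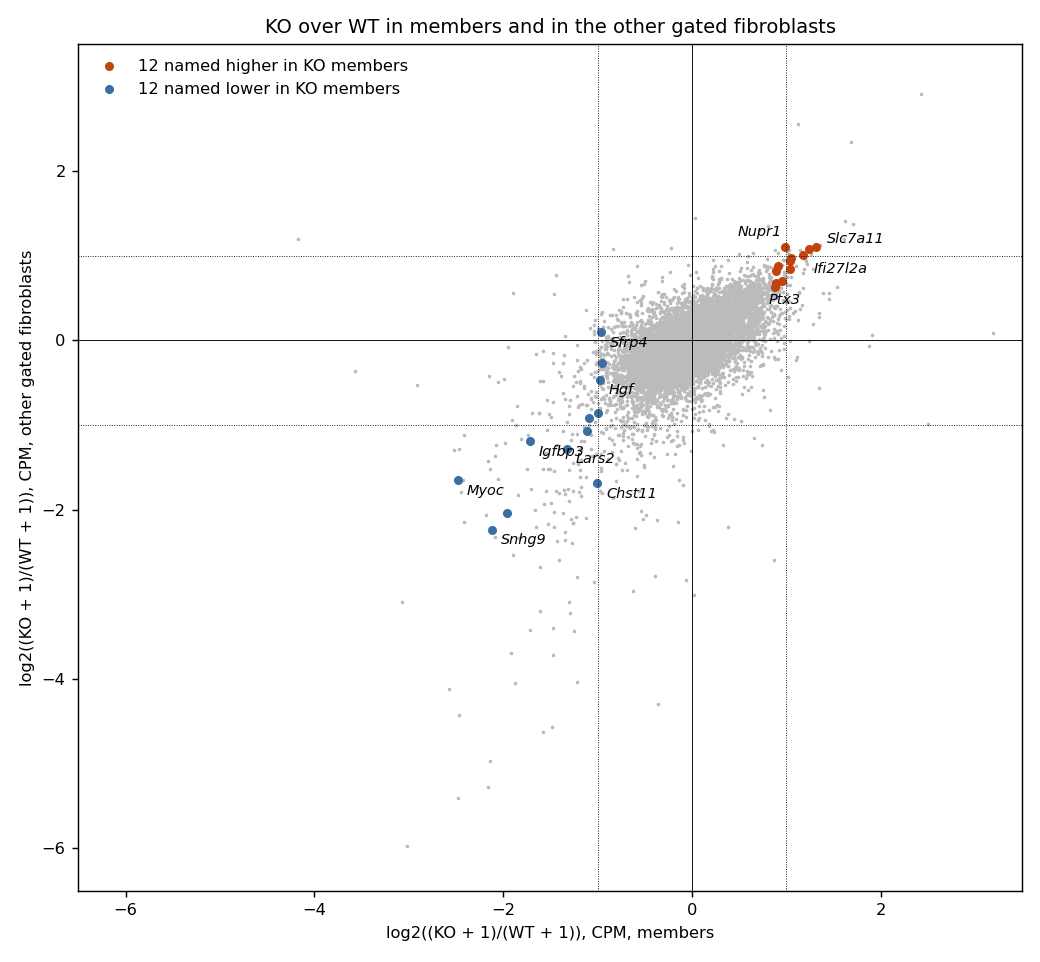
Log2 ratio of KO over WT in members (horizontal axis) and in other gated fibroblasts (vertical axis), 1 point per gene with at least 20 UMIs over the members, dotted lines at 2-fold. The named higher genes lie above 0 on both axes, and of the named lower genes Sfrp4 lies at -0.97 in members and 0.09 in other gated fibroblasts.

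Among the higher genes, several serve amino acid supply and stress. Slc7a11, the cystine transporter that feeds glutathione synthesis, had 67.9 CPM (62.1–74.0) in KO and 26.6 CPM (23.5–30.01) in WT members, a log2 ratio of 1.32. It was also higher in other gated fibroblasts, with 31.6 CPM in KO and 14.2 CPM in WT, while leukocytes had 133 CPM in KO and 175 CPM in WT. Psph, the last enzyme of serine synthesis, had 52.2 CPM in KO and 21.6 CPM in WT members, while barcodes outside the gate had 22.03 CPM in KO and 85.96 CPM in WT. Mthfd2, a mitochondrial folate enzyme, had 79.9 CPM in KO and 38.2 CPM in WT members, and Asns, asparagine synthetase, 48.0 CPM in KO and 23.6 CPM in WT members. Of the 20 measured genes of the amino acid and stress list, 5 were at least 2-fold higher in KO members (Slc7a11, Mthfd2, Sesn2, Chac1 and Trib3), where 0.504% of all measured genes were. None was 2-fold lower, and the list median was 0.41 in members and 0.29 in other gated fibroblasts. In members 14 of the 20 had ratios above 0, and the lowest was Slc38a2 at -0.64. The list summed to 3180 CPM in KO and 3320 CPM in WT members, so its total was not higher in KO. Chac1 and Trib3 rest on few molecules, at 4.11 and 6.76 CPM in KO members against 0.594 and 1.39 CPM in WT members. Nupr1, a small stress-induced chromatin protein, had 705 CPM (686–724) in KO and 356 CPM (345–368) in WT members.

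Immune-related genes were also among those higher in KO members. Ifi27l2a, an interferon-induced gene, had 339 CPM in KO and 149 CPM in WT members, and 847 CPM in KO and 421 CPM in WT other gated fibroblasts. Isg15, a ubiquitin-like interferon product, had 51.8 CPM in KO and 27.1 CPM in WT members. H2-T23, which encodes the non-classical MHC molecule Qa-1, had 99.4 CPM in KO and 47.8 CPM in WT members. Few genes of their lists passed 2-fold, although most had ratios above 0. Of 19 interferon-stimulated genes 1 was at least 2-fold higher and 13 were above 0, with a list median of 0.23 in members and 0.19 in other gated fibroblasts. The interferon list summed to 1005 CPM in KO and 667 CPM in WT members. Of 15 MHC class I and antigen processing genes 1 was at least 2-fold higher and 13 were above 0, with a list median of 0.42 in members and 0.25 in other gated fibroblasts. Of 25 chemokines and cytokines 1 was at least 2-fold higher and 1 lower, and of 11 complement genes none was higher and 1 was lower. Ptx3, a soluble pattern recognition protein, had 1539.7 CPM in KO and 832 CPM in WT members, beside 1387 CPM in KO and 864 CPM in WT other gated fibroblasts. Fst, the activin-binding protein follistatin, had 224 CPM in KO and 121 CPM in WT members, with 250.3 CPM in KO and 161 CPM in WT other gated fibroblasts.

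Of the lower genes, a first group was lower in KO in members, in other gated fibroblasts, in leukocytes and outside the gate. Snhg9, a small nucleolar RNA host transcript, had 15.8 CPM in KO and 72.1 CPM in WT members, and 15.3 CPM in KO and 65.8 CPM in WT leukocytes. Lars2, mitochondrial leucyl-tRNA synthetase, had 208 CPM in KO and 524 CPM in WT members, and 116 CPM in KO and 335 CPM in WT leukocytes. The same held for AC160336.1, with 12.2 CPM in KO and 50.2 CPM in WT members. These ratios were as large outside the gate, where Snhg9 stood at -2.32 and Lars2 at -1.57, as in members, where Snhg9 stood at -2.12 and Lars2 at -1.33.

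A second group was high in the set E cells that only the WT library held. Myoc, a set E gene that encodes myocilin, had 8.22 CPM in KO and 50.5 CPM in WT members, and 1760.4 CPM in WT set E cells. Set A cells had it too, at 280 CPM in KO and 366 CPM in WT. Igfbp3, a carrier of insulin-like growth factors, had 67.3 CPM in KO and 224 CPM in WT members, and 2465 CPM in WT set E cells. It was also at 843 CPM in KO and 852 CPM in WT set D cells, and at 523 CPM in KO and 661 CPM in WT set A cells. Set E cells were thus not the only cells with these 2 transcripts. Leukocytes had 6.36 CPM of Myoc and 14.5 CPM of Igfbp3 in KO, against 42.1 CPM of Myoc and 90.1 CPM of Igfbp3 in WT, so KO was below WT also in cells that should lack them. In KO members, 48.4% of the Myoc UMIs were in 1 cell. Sfrp4, with a log2 ratio of -0.97 in members, also rested on few cells, since 1 cell held 13.7% of its UMIs in KO and 19.1% in WT, and its ratio was 0.47 when the rule was applied to cells thinned to 5000 UMIs.

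Contractile genes were a further group, and 7 of 15 were at least 2-fold lower in KO members, where 1.62% of all measured genes were, with a list median of -0.85. In other gated fibroblasts 11 of the 15 were at least 2-fold lower, with a list median of -1.18. The list summed to 1420 CPM in KO and 1818 CPM in WT members, beside 535 CPM in KO and 1111 CPM in WT leukocytes. Acta2, smooth muscle actin, had 35.4 CPM in KO and 129.6 CPM in WT members, beside 61.4 CPM in KO and 171 CPM in WT leukocytes. Myh11, smooth muscle myosin, had 4.90 CPM in KO and 48.7 CPM in WT members, beside 13.5 CPM in KO and 59.9 CPM in WT leukocytes. Acta2 and Myh11 were both lower in members than in leukocytes of the same library, cells that should lack them, while the summed list was higher in members. The skeletal muscle list followed, with 13.3 CPM in KO and 63.8 CPM in WT members and 12.3 CPM in KO and 375 CPM in WT leukocytes.

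Hgf and Mical2 were lower in KO members as well. Hgf, the hepatocyte growth factor that stromal cells send to epithelium, had 40.03 CPM (35.6–44.8) in KO and 79.8 CPM (74.4–85.5) in WT members, with 28.7 CPM in KO and 40.05 CPM in WT other gated fibroblasts and 5.57 CPM in KO and 9.42 CPM in WT leukocytes. Its log2 ratio was -0.98 in members and -0.47 in other gated fibroblasts, and the difference between these ratios was not tested. Mical2, an actin-oxidising enzyme, had 83.8 CPM in KO and 163 CPM in WT members, with 96.3 CPM in KO and 116 CPM in WT other gated fibroblasts. Hgf was above leukocytes in both kinds of fibroblast and highest in WT members.

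Between KO and WT members, the ratios of the 6 given markers ran from -0.35 for Enpep to 0.30 for Fap, with a median of 0.02. The rule used 4 of these 6 genes in both libraries, which bears on their levels, so nothing is read from that range. None of the 20 sterol synthesis genes reached 2-fold, with a median of 0.14 in members and -0.10 in other gated fibroblasts, and neither did any of the 9 measured fibrillar collagen genes, at a median of -0.17. Over all measured genes 0.504% were at least 2-fold higher and 1.62% lower, so a count of 0 in lists of this length lies near the background and is not a result about them. Fabp4 had a log2 ratio of 0.24 between KO and WT members.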

How the data were processed

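The data are 2 matrices of UMI counts, 1 library per genotype, for 32285 genes per barcode. The counts are used as deposited. Per the submitters' processing notes, mm10 was the genome build, and both Seurat (3.2.0) and Cell Ranger (5.0.1) were in use, with no settings given, and no cell types came with the files. All values were whole numbers and the lowest barcode total was 500 UMIs, so barcodes had been filtered on depth before deposit.

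Members and the other classes were found from the rule given in the report. The rule, the gene lists and the limits were chosen with earlier results of these data known, and nothing in the choice of members is independent of them. The 3 lists on sterol and fatty acid metabolism were written after values had been seen. UMIs were summed over the cells of a group in each library and divided by the group total to give CPM. Genes entered a comparison with at least 20 UMIs over the groups compared, 1 CPM was added to each level before the log2 ratio, and a gene was counted past 2-fold. With 1 library per genotype there is no test and no p-value. Named genes are those of the rule, gate and markers, the 12 highest and 12 lowest KO over WT ratios in members, and the 20 highest and 12 lowest ratios of members over other gated fibroblasts. The named ratios needed at least 50 CPM in the higher group and, between genotypes, at least 100 UMIs and a level in members of at least 0.5 times that outside the gate. Members of the 50 lists with the design and the 3 added lists could also be named. Genes for haemoglobin, mitochondrial or ribosomal proteins and unnamed Gm or Rik loci were skipped in these rankings. Of the genes these rules name, 2 are not reported here.

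Scrublet in scanpy 1.11.5 called 435 KO (3.99%) and 461 WT (4.20%) of the filtered barcodes doublets, among them 4 KO and 10 WT members. They were kept in the values reported and left out in an alternative. Neighbours were the 20 nearest cells in 30 principal components of 2000 variable genes (scikit-learn 1.9.0), each library alone. Cells under 5000 UMIs were left out where cells were thinned to that number. Other steps used Python 3.11.15, numpy 2.4.6, scipy 1.17.1 and, for TMM factors as an alternative scaling, edgeR 4.0.16 in R 4.3.3. The steps recovered the changes put into simulated counts. Gene positions are those of GENCODE M21 on GRCm38, the assembly of mm10, which held 99.8% of the gene identifiers.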

Additional observations from a re-analysis of the deposited data

Results flagged for a closer look

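For 11 of 683 measured genes that were named or on a list (1.61%), the ratio of KO over WT had one sign in members and the other in other gated fibroblasts, by at least 0.2 on the log2 scale in each and with intervals that did not overlap between KO and WT in either. Over all 11900 measured genes the same held for 47 (0.395%). The difference between the ratios was not tested, since each rests on 1 library per genotype. The other gated fibroblasts also differed in make-up: set A cells were 24.5% of gated cells in KO and 17.4% in WT. Set E cells numbered 0 in KO and 272 in WT. The part of this mix in the ratios was not tested.

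Pi16, a set A gene and so part of the rule, had 31.5 CPM in KO and 61.9 CPM in WT members (log2 ratio -0.950). Other gated fibroblasts had 878 CPM of Pi16 in KO and 697 CPM in WT. Within set A cells, Pi16 was at 2497 CPM in KO and 2433 CPM in WT. Cells led by no set had 193 CPM of Pi16 in KO and 190 CPM in WT. Set D cells had 90.1 CPM in KO and 69.8 CPM in WT, and set C cells 64.2 CPM in KO and 91.2 CPM in WT. Ccn3, a matricellular protein, had 6.10 CPM in KO and 25.3 CPM in WT members (-1.89) and 31.0 CPM in KO and 20.7 CPM in WT other gated fibroblasts, and 5 cells held 63.3% of its UMIs in WT members. Adamts15, a secreted protease that cuts aggrecan and versican, had 10.1 CPM in KO and 16.5 CPM in WT members (-0.663) and 27.1 CPM in KO and 16.5 CPM in WT other gated fibroblasts. Wnt2, a canonical Wnt ligand, had 55.3 CPM in KO and 68.1 CPM in WT members (-0.297) and 108 CPM in KO and 73.1 CPM in WT other gated fibroblasts.

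The matrix genes Postn and Col27a1 showed the same order with smaller ratios. Postn had 5944 CPM in KO and 6924 CPM in WT members (-0.220) and 5548 CPM in KO and 4738 CPM in WT other gated fibroblasts. Col27a1 had 112 CPM in KO and 135 CPM in WT members (-0.266) and 64.7 CPM in KO and 56.0 CPM in WT other gated fibroblasts.

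The other 5 genes were higher in KO members and lower in the other gated KO fibroblasts. Cd36 had 58.1 CPM in KO and 38.0 CPM in WT members (0.598) and 5.70 CPM in KO and 7.69 CPM in WT other gated fibroblasts. Idi1, an isomerase of sterol synthesis, had 227 CPM in KO and 168 CPM in WT members (0.430) and 66.5 CPM in KO and 95.5 CPM in WT other gated fibroblasts. Esr1, estrogen receptor alpha, had 63.2 CPM in KO and 51.3 CPM in WT members (0.297) and 71.7 CPM in KO and 111 CPM in WT other gated fibroblasts. Car3, a carbonic anhydrase of fat and muscle, had 25.4 CPM in KO and 13.5 CPM in WT members (0.871) and 1.23 CPM in KO and 12.47 CPM in WT other gated fibroblasts, and 5 cells held 46.9% of its UMIs in KO and 47.8% in WT members. Cenpf, a kinetochore protein of dividing cells, had 5.17 CPM in KO and 2.47 CPM in WT members (0.828) and 3.60 CPM in KO and 7.15 CPM in WT other gated fibroblasts, and 5 cells held 94.9% of its UMIs in KO members.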

How the results depend on the processing

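Under the alternatives, 80 values of the main comparisons stayed within their limits and 30 moved, and 1000 values of named genes stayed, 63 moved and 1 changed sign. The share of members moved with the rule itself: it was 19.1% in KO and 19.4% in WT with at least 1 set B gene, 11.4% in KO and 13.2% in WT with at least 3, and 15.1% in KO and 16.3% in WT on cells thinned to 5000 UMIs. It was 13.9% in KO and 14.6% in WT with no Scg3, 10.9% in KO and 12.3% in WT with no Adam12, and 12.2% in KO and 12.6% in WT with no Bmper. It was 10.4% in KO and 10.3% in WT with no Enpep, where KO was the higher, and 15.96% in WT over all deposited barcodes. The number of genes at least 2-fold higher in KO members, 60, was 95 with the thinned rule, 103 with no Adam12, 95 with no Bmper and 31 among genes with at least 100 UMIs, where 64 were lower. It was 157 with 0.1 CPM added and 12 with 5 CPM, and the number of lower genes, 193, was 374 with 0.1 CPM and 44 with 5 CPM. Members over other gated fibroblasts gave 147 higher and 808 lower genes with 0.1 CPM and 43 higher and 148 lower with 5 CPM. Members among the neighbours of members were 53.8% in KO and 54.8% in WT with at least 3 set B genes. Sfrp4 had a ratio of 0.47 with the thinned rule. TMM scaling moved the median ratio of all genes to -0.03 and gave 82 higher and 177 lower genes in KO members. The cause of these shifts was not tested, beyond what each alternative changes by construction.

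After the data had been seen, WT set E cells were left out of the other gated fibroblasts, which gave 78 higher and 358 lower genes in members, and members with an Acta2 UMI were left out, which left 619 KO and 537 WT members with 83 higher and 150 lower genes in KO. No library could be left out, because each genotype has 1. No paired analysis was possible because no comparison was tested and each genotype had a single library. Levels of a few CPM in members rest on few UMIs, since members held 7545149 UMIs in KO and 10101798 in WT.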
